A study of Mus musculus with 8 samples.

Results

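Cadherins and protocadherins are cell surface adhesion proteins, and their messenger RNAs were followed in ribosome pull-downs and unpurified RNA of the mouse medial prefrontal cortex (mPFC). The genes were chosen by symbol: every Cdh gene with a number and every Pcdh gene that had a probe set annotated to that 1 gene, with Cdh13 not analysed here. This gave 57 genes, and 41 of them were kept because they lay above the array median on 2 or more of the 8 arrays, the median being taken over the 22180 genes with such a probe set. The same filter kept 11712 genes in all. The mice carried a ribosomal tag of green fluorescent protein (GFP) that Cre recombinase switches on, and the virus CAV2-Cre, which is taken up by axon terminals, was injected in a target of mPFC axons that the labels call VTA or NAC. Tagged ribosomes of mPFC were captured with GFP-trap, an antibody fragment on beads that binds GFP, and the RNA was hybridised to Affymetrix arrays. There were 4 groups of 2 arrays each. They were pull-down RNA of VTA-injected mice, pull-down RNA of NAC-injected mice, input RNA of VTA-injected mice and input RNA of NAC-injected mice. Mice of all groups, inputs included, carried the tag and had received the virus. The labels give no age, sex or strain, and nothing in them tells whether the arrays within a group stand for different animals, pools or extractions. The p-values hence reflect the spread between these arrays, which may be technical.

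Classical cadherins bind the same or a similar cadherin on a neighbouring cell in the presence of calcium, and their cytoplasmic tails hold catenins that link them to actin. Type I and type II classical cadherins differ in the sequence of the outermost domain, and in the brain they are known from adherens junctions and synapses. Clustered protocadherins are encoded by gene arrays named alpha, beta and gamma, from which single neurons choose a subset of promoters, and they give neurons a surface identity used in self-avoidance. Non-clustered protocadherins of the delta groups lie outside these arrays and have roles in axon growth and synapse number.

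Levels are the deposited log2 values, differences are on the same log2 scale, and a standard error (SE) is that of a limma model fitted to all 8 arrays. A gene was called at a limma adjusted p under 0.05 after Benjamini-Hochberg adjustment over the 11712 genes. Array medians over the named genes lay between 5.86 and 5.98. The first principal component, with 50.4% of the variance, separated pull-downs from inputs, and of the pull-downs the first with NAC was nearest to the inputs. Markers of glia, vessels and interneurons were lower in the pull-downs, at 5 of 5 oligodendrocyte, 5 of 6 astrocyte, 5 of 6 microglial, 3 of 5 oligodendrocyte precursor, 5 of 5 mural, 2 of 4 endothelial and 4 of 6 GABAergic interneuron genes. These counts are read against the 32% of all genes called lower. Of 5 glutamatergic cortical neuron genes, Fezf2 was higher, 2 were lower and 2 were not called. Slc17a7, the vesicular glutamate transporter of cortical projection neurons, lay between 11.51 and 11.79 on all 8 arrays. Whole RNA pools were compared, so fewer cells of a type and less RNA per cell cannot be told apart.

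The filter acted unevenly on the gene groups. It kept 2 of 5 type I classical cadherins (Cdh2 and Cdh4), 12 of 13 type II classical cadherins, 0 of 4 other numbered cadherins, 4 of 4 delta-1, 5 of 5 delta-2 and 2 of 3 other non-clustered protocadherins. Of the clustered protocadherins with a probe set of their own it kept 16 of 23, which were 15 beta genes and Pcdhga10. No alpha gene had a probe set of its own. The genes not kept were Cdh1, Cdh3, Cdh15, Cdh16, Cdh17, Cdh19, Cdh23, Cdh26, Pcdh12, Pcdhb1, Pcdhb2, Pcdhb5, Pcdhb9, Pcdhb10, Pcdhb11 and Pcdhb21. Just inside the filter were Pcdhb7, above the median on 2 arrays, and Pcdhb16, above it on 3, and just outside was Cdh15, above it on 1. Of the 16 clustered genes kept, 6 owed their place to the inputs, with fewer than 2 pull-downs above the median. In Pcdhb3, Pcdhb4, Pcdhb7, Pcdhb16 and Pcdhb18 no pull-down was above it, and in Pcdhb19 it was 1. None owed its place to the pull-downs. The filter favours a higher input in such genes, so counts over the clustered genes kept are given as descriptions. The kept genes lie on several chromosomes, but 18 of the 41 are on chromosome 18, where the clustered genes, Cdh2 and Pcdh1 map. Beta protocadherins are near-identical over long stretches, and reads of one transcript by a neighbour's probes cannot be told apart here.

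**Figure D1:**
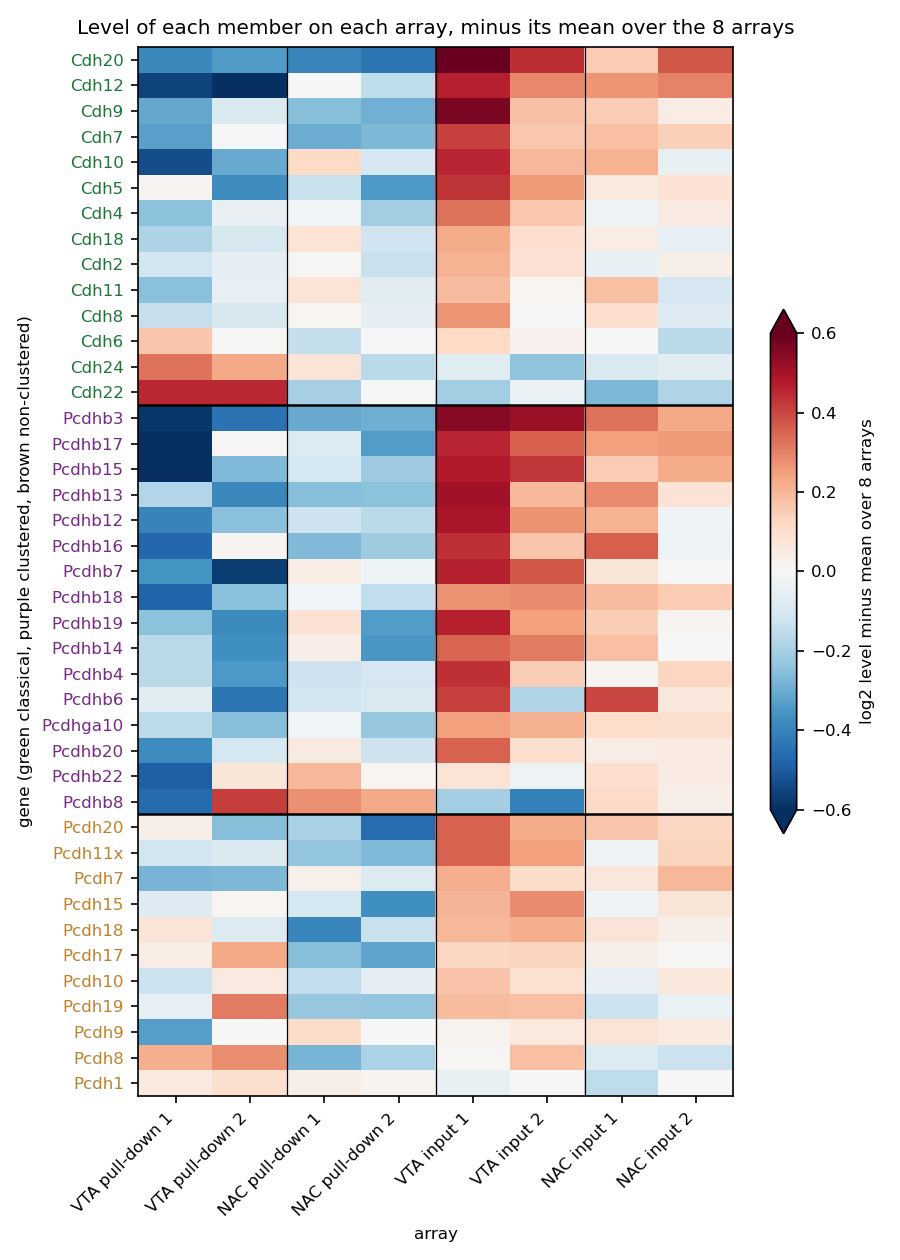
Level of each of the 41 cadherin and protocadherin genes (rows) on each of the 8 arrays (columns), as the log2 value minus that gene's mean over the arrays, with classical, clustered and non-clustered genes in blocks. Most clustered rows are below their mean on the pull-down arrays and above it on the input arrays, and Cdh22 stands highest on both VTA pull-downs.

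The comparison of the VTA with the NAC pull-downs asked whether cells labelled from the 2 targets differed in these transcripts. Cdh22 and Pcdh8 were higher and Cdh12 and Pcdhb7 lower in VTA pull-downs, and the other 37 genes did not pass. Calls were rare in this comparison, at 0.418% of all genes higher and 2.05% lower. In the inputs, with no array in common with the pull-downs, none of the 41 genes passed.

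Cdh22, a type II classical cadherin known from brain and pituitary, had levels of 8.93 and 8.93 in VTA pull-downs, against 8.28 and 8.47 in NAC pull-downs. Its input levels were 8.27 and 8.44 with VTA and 8.21 and 8.30 with NAC. Both VTA pull-downs stood above all 6 other arrays, whose values overlapped. The difference between the pull-downs was 0.56 (SE 0.11, 1.47-fold, limma adjusted p with Benjamini-Hochberg = 0.022).

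Cdh12, another type II classical cadherin of the brain, had 8.22 and 8.17 in VTA pull-downs, against 8.77 and 8.62 in NAC pull-downs. Its inputs were at 9.24 and 9.06 with VTA and at 9.04 and 9.07 with NAC. The groups formed 3 steps without overlap, with VTA pull-downs lowest, NAC pull-downs between and all inputs highest. The difference between the pull-downs was -0.50 (SE 0.10, 1.42-fold lower, limma adjusted p with Benjamini-Hochberg = 0.029). Over the 14 classical cadherins the differences ran from -0.50 to 0.56 with a median of 0.02, so these 2 genes were the ends of the range.

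Pcdh8 is a delta-2 protocadherin that neuronal activity induces in rat, where it is known to drive the uptake of N-cadherin from synapses. It had 7.26 and 7.32 in VTA pull-downs, against 6.76 and 6.85 in NAC pull-downs. Its inputs were at 7.05 and 7.22 with VTA and at 6.96 and 6.91 with NAC, between the 2 kinds of pull-down. The difference between the pull-downs was 0.49 (SE 0.10, 1.40-fold, limma adjusted p with Benjamini-Hochberg = 0.028).

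Pcdhb7, of the beta cluster, had 5.45 and 5.24 in VTA pull-downs, against 5.85 and 5.78 in NAC pull-downs. Its inputs were at 6.27 and 6.18 with VTA and at 5.88 and 5.81 with NAC. Every array but the VTA inputs was at or under its median over the named genes, so the size of this difference is not exact. It was -0.47 (SE 0.10, limma adjusted p with Benjamini-Hochberg = 0.042).

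The 250 bases before the annotated transcription start are shown for 3 of these 4 genes, from RefSeq's promoter table, because the genes moved in different directions between the pull-downs. They run 5′ to 3′ on the gene's strand in assembly GRCm38.p6. Capitals mark matches on either strand to any of the motifs searched. These were the TATA box with letters TATAAA, the CCAAT box, the GC box with letters GGGCGG, the E-box with letters CANNTG, the cAMP response element with letters TGACGTCA, and the core motif of CTCF. None of these overlapped in the windows shown.
Cdh22: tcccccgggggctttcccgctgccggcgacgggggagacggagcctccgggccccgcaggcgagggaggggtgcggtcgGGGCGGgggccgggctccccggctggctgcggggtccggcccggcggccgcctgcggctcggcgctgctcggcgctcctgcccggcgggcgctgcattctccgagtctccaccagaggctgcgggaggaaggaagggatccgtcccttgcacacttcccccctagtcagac
Cdh12: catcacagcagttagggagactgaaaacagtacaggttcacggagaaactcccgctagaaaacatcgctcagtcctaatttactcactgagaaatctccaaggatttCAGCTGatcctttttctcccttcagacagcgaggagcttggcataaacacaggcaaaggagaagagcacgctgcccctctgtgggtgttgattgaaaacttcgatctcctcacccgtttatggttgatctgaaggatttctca
Pcdh8: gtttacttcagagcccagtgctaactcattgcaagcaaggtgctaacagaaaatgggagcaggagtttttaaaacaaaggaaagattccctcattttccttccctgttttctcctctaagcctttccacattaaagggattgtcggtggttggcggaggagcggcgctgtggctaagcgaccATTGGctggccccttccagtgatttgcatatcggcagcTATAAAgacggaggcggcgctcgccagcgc

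The Cdh22 window lies at chr2:165234738-165234987 on the minus strand, has a GC content of 77.6% and holds a GC box that begins 171 bases before the start. The Cdh12 window, at chr15:21111202-21111451 on the plus strand, has a GC content of 46.8% and holds an E-box 143 bases before the start. The Pcdh8 window, at chr14:79771313-79771562 on the minus strand, has a GC content of 51.2%, with a CCAAT box 68 bases and a TATA box 30 bases before the start. The median GC content of all 32851 windows in the table was 52.4%, with 5th and 95th percentiles of 34.8% and 73.6%, so the Cdh22 window lay above the 95th percentile. Of all windows, 12.4% held a TATA box, 33.8% a CCAAT box, 32.7% a GC box, 66.2% an E-box, 1.55% a cAMP response element and 0.0335% the CTCF core. Entries were found for 19 of the 41 genes, with 22 windows, of which 2 held a TATA box, 14 a CCAAT box, 8 a GC box and 11 an E-box. None of the 22 held either of the others. Every window with a match belonged to a classical or non-clustered gene, so these counts do not describe the clustered promoters. No motif of the list was shared by the 3 printed windows, and a match is only a match of letters.

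The 4 calls rested on few arrays. With each of the 8 arrays left out in turn, the count of called genes ran from 0 to 4. Without the first NAC pull-down none was called, although the differences stayed at 0.46 for Cdh22, -0.43 for Cdh12, 0.45 for Pcdh8 and -0.44 for Pcdhb7. Cdh22 alone was called without the second NAC pull-down and without either NAC input, and of the 4 genes only Pcdhb7 was called without the first VTA pull-down. Without the second VTA pull-down 4 genes were called, none of them among the original 4. At an unadjusted p under 0.05, 13 of the 41 genes stood out, 6 higher and 7 lower with VTA, against 16.2% of all genes. When only the 4 pull-downs were fitted none passed. Without the filter (22180 genes tested) none of the 57 genes passed, and the limma adjusted p-values (Benjamini-Hochberg) were 0.12 for Cdh22, 0.15 for Cdh12, 0.14 for Pcdh8 and 0.18 for Pcdhb7. Pcdhb7 also lost its call under each of the 3 centrings of the arrays that were tried.

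Among the delta-2 protocadherins, all 5 differences between VTA and NAC pull-downs were above 0, as were 4731 of all 11712 genes. The median was 0.36 against -0.04 over all genes, and Pcdh8 alone passed. Pcdh17, which in mouse takes part in the assembly of synaptic vesicles at corticostriatal contacts, missed the threshold narrowly. It had 9.28 and 9.46 in VTA pull-downs, against 8.98 and 8.92 in NAC pull-downs, a difference of 0.42 (SE 0.10, limma adjusted p with Benjamini-Hochberg = 0.052). It passed, at 0.47, with arrays centred on their median over the genes tested. Pcdh19, an X-linked gene whose human counterpart is known from an epilepsy of girls, had 7.78 and 8.14 in VTA pull-downs, against 7.60 and 7.59 in NAC pull-downs. The spread of its VTA pull-downs was wide, and its difference of 0.36 had a limma adjusted p (Benjamini-Hochberg) of 0.16. Pcdh18 differed by 0.26 and Pcdh10 by 0.07, with adjusted p-values of 0.28 and 0.79 in the same limma fit. In the inputs the same 5 genes were also above 0 with VTA, by 0.11 to 0.27.

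Among the clustered protocadherins, 15 of the 16 differences between the pull-downs were below 0, with a median of -0.20, and Pcdhb7 alone passed. Over all genes, 6981 of 11712 were below 0. With each array centred on its median over the genes tested, 14 of 16 were below 0, against 5520 of all 11712, and the clustered median was -0.14. For the remaining non-clustered genes the differences ran from -0.25 at Pcdh7 to 0.21 at Pcdh15 and Pcdh20, and none passed. Among classical cadherins, Cdh10 had -0.43 (limma adjusted p with Benjamini-Hochberg = 0.15) and Cdh24 had 0.32 (0.19). Cdh2, the N-cadherin of synaptic junctions, had -0.02 and Cdh4, the R-cadherin, -0.03, each smaller than its SE.

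In the inputs, VTA minus NAC was above 0 for 36 of 41 genes and for 7957 of all 11712. The median was 0.15 against 0.06 over all genes. With arrays centred on their median over the genes tested, 33 of 41 and 5621 of all were above 0, and the medians were 0.08 and -0.01. None passed in limma, where 1.5% of all genes did, and 6 of the 41, all higher with VTA, had an unadjusted p under 0.05, against 10.9% of all genes. Pcdhb7 had the largest input difference at 0.38 (SE 0.10). It passed the filter only through its 2 VTA inputs, so this value is a description. The difference of enrichment, in which the pull-down minus input value with NAC is taken from that with VTA, passed for none of the 41 genes and for 0.0683% of all genes. At an unadjusted p under 0.05, 11 of the 41 stood out, 3 higher and 8 lower with VTA, against 12% of all genes. It was -0.85 for Pcdhb7, again a description, -0.68 for Cdh10, -0.59 for Cdh12, 0.46 for Cdh22 and 0.29 for Pcdh8. The limma adjusted p-values (Benjamini-Hochberg) were 0.27 for Cdh10, 0.26 for Cdh12, 0.30 for Cdh22 and 0.43 for Pcdh8. The input level of Pcdh8 was 0.20 higher with VTA than with NAC, which did not pass. A difference between the targets in enrichment over input was thus not shown for any of these genes. Other genes moved with the target as well. Fezf2, a transcription factor gene of deep-layer projection neurons, was 0.51 higher in VTA than in NAC pull-downs, the sole call among 5 glutamatergic markers. The astrocytic gene Gfap (1 of 6 astrocyte markers called) had -1.22 in pull-downs and -0.84 in inputs. The median of the astrocyte list was 0.04 in pull-downs and -0.1 in inputs, so Gfap stood apart from its list. The microglial genes C1qa and Ly86 (2 of 6 called) had -0.83 and -0.86 in pull-downs and -0.91 and -0.84 in inputs. Summed on the linear scale, the microglial list was at 1346 to 1347 in VTA pull-downs against 1822 to 1837 in NAC pull-downs, and the astrocyte list at 3131 to 3493 against 3411 to 3618. The astrocyte ranges overlapped, and these sums include Gfap. The part of these markers in the results for Cdh22, Cdh12, Pcdh8 and Pcdhb7 was not tested.

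**Figure D2:**
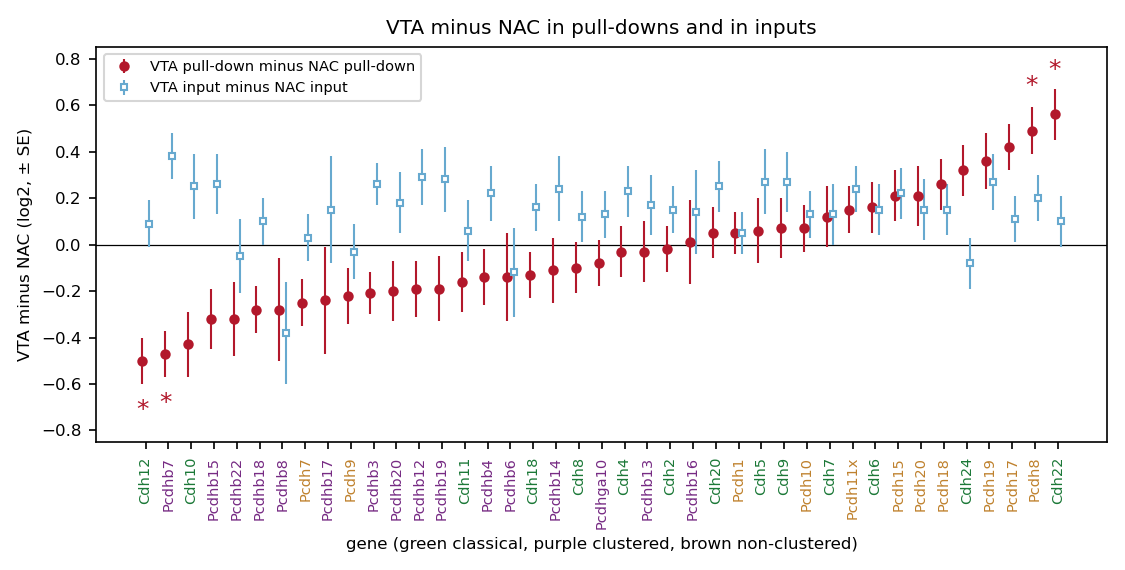
VTA minus NAC on the log2 scale (vertical axis, with SE bars) for each of the 41 genes, in pull-downs and in inputs. Pull-down values run from -0.50 at Cdh12 to 0.56 at Cdh22, and input values from -0.38 to 0.38.

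**Figure D3:**
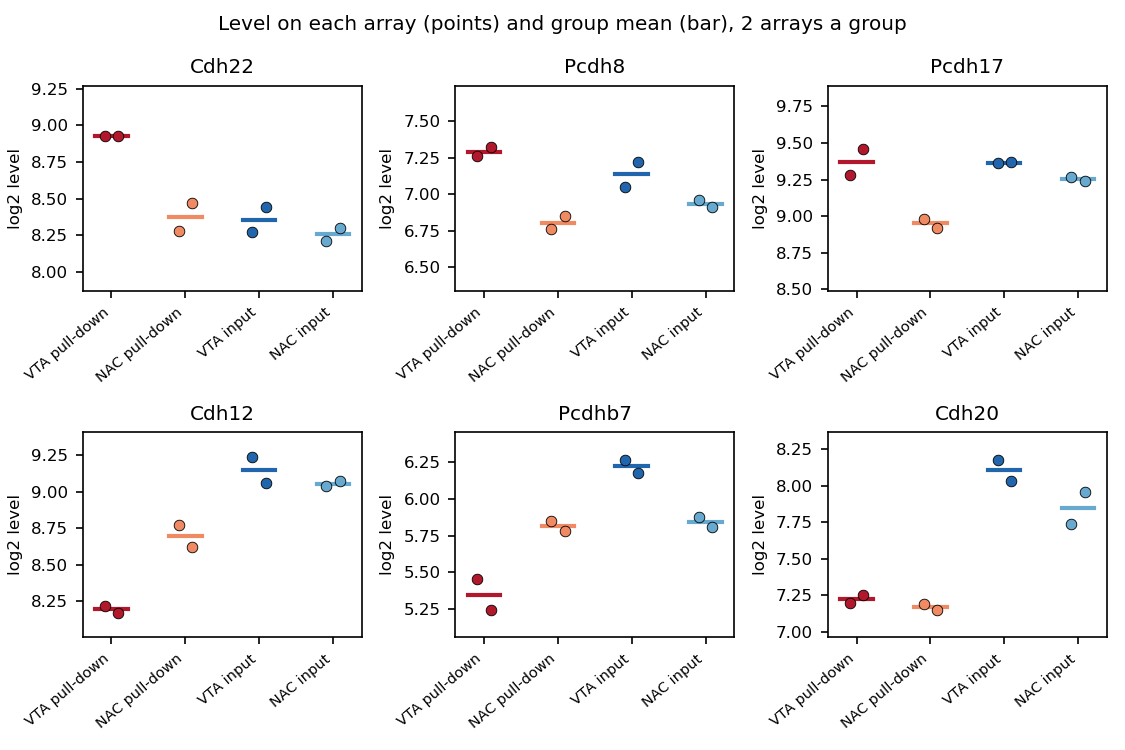
Log2 level on each array (points) and group mean (bar) for Cdh22, Pcdh8, Pcdh17, Cdh12, Pcdhb7 and Cdh20, with 2 arrays in each of the 4 groups. Cdh22 is at 8.93 on both VTA pull-downs, above all other arrays, and Cdh12 is lowest on the VTA pull-downs.

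Pull-down was then compared with input, averaged over both targets, to ask how these transcripts stood on the tagged ribosomes. Of the 41 genes, 25 were lower and 2 (Cdh22 and Cdh24) higher in the pull-downs, and 14 were not called. The 25 include all 6 clustered genes that owed their place to the inputs, so counts and medians over the 41 genes are descriptions. Over all genes 32% were called lower and 9.6% higher, and the median difference was -0.32 over the 41 genes and -0.11 over all genes. The zero of this comparison depends on how arrays are scaled. With each array centred on its median over the genes tested, the median of all genes was 0.03, with 2498 genes higher and 1753 lower in place of 1124 and 3742. Relative to that, 17 of the 41 genes were lower and 3 higher, with a median of -0.19. Without a filter on level, 23 of 57 genes were lower and 1 higher, against 10.8% lower and 4.76% higher over 22180 genes. All 4 pull-downs lay below all 4 inputs for 16 of the 41 genes, against 24.8% of all genes, and above them for Pcdh1 alone, against 7.91%. The 16 include Pcdhb3, Pcdhb4 and Pcdhb18, which passed the filter only through their inputs, so this count is also a description.

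Of the 14 classical cadherins, 7 were lower and 2 higher, with a median of -0.21. Over all genes the shares were 32% lower and 9.6% higher. With the centring over the genes tested, 5 classical cadherins were lower and 2 higher, against 1753 lower and 2498 higher of all 11712 genes. The largest fall was that of Cdh20, a type II cadherin. It had 7.20 and 7.25 in VTA pull-downs, against 8.18 and 8.03 in VTA inputs, and 7.19 and 7.15 in NAC pull-downs, against 7.74 and 7.96 in NAC inputs. The 4 pull-downs lay close together and below every input. The averaged difference was -0.78 (SE 0.07, 1.72-fold lower, limma adjusted p with Benjamini-Hochberg = 0.0002).

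Cdh12, whose levels are given above, was next at -0.66 (SE 0.07, 1.58-fold lower, limma adjusted p with Benjamini-Hochberg = 0.00033). Cdh10, a type II cadherin, had 9.44 and 9.67 in VTA pull-downs, against 10.43 and 10.17 in VTA inputs. Its NAC pull-downs, at 10.09 and 9.87, overlapped the NAC inputs at 10.18 and 9.93. The averaged difference of -0.41 passed (SE 0.10, limma adjusted p with Benjamini-Hochberg = 0.0087), and it was -0.75 with VTA and -0.07 with NAC. Cdh9, known from hippocampal mossy fibre synapses in mouse, fell by 0.47 and Cdh7 by 0.45. Cdh5, the VE-cadherin of blood vessel endothelium, fell by 0.41, and Cdh4 by 0.25. Of 4 endothelial markers tested, Flt1 and Kdr were also lower, and the summed endothelial signal on the linear scale was 431 to 507 in VTA pull-downs against 551 to 598 in VTA inputs, and 438 to 453 in NAC pull-downs against 531 to 561 in NAC inputs. The part of endothelial RNA in the fall of Cdh5 was not tested. With the centring over the genes tested, Cdh4 and Cdh5 lost their calls, at -0.12 and -0.28.

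Cdh2 had 9.94 and 10 in VTA pull-downs, against 10.26 and 10.14 in VTA inputs, and 10.06 and 9.92 in NAC pull-downs, against 10.01 and 10.09 in NAC inputs. The NAC values overlapped, and the averaged difference of -0.15 did not pass (SE 0.07, limma adjusted p with Benjamini-Hochberg = 0.11). Cdh8, Cdh11 and Cdh18 lay between -0.16 and -0.14 and Cdh6 at 0.01, and none of these passed. Cdh22 was 0.35 higher in the pull-downs (SE 0.07, 1.27-fold, limma adjusted p with Benjamini-Hochberg = 0.0058). The difference was 0.58 with VTA and 0.12 with NAC, where it did not pass (limma adjusted p with Benjamini-Hochberg = 0.47) and the groups overlapped. Cdh24 had 7.21 and 7.11 in VTA pull-downs, against 6.81 and 6.64 in VTA inputs, and 6.96 and 6.72 in NAC pull-downs, against 6.79 and 6.82 in NAC inputs. Its VTA pull-downs stood apart and its NAC groups overlapped, and the averaged difference was 0.23 (SE 0.08, limma adjusted p with Benjamini-Hochberg = 0.037). Cdh24 was no longer called with the first NAC pull-down left out, nor with the first VTA pull-down, either NAC input or the second VTA input left out, with values down to 0.17. Cdh22 kept its call in the averaged comparison whichever single array was left out.

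Of the 16 clustered protocadherins kept, 13 were lower and none higher in the pull-downs (limma), with a median of -0.44. Among the 10 that did not owe their place to the inputs, 7 were lower, with a median of -0.38. Over all 23 with a probe set of their own and no filter, 13 were lower, against 10.8% of all genes. Genes of like brightness were called lower at shares of 26.1% to 36.3% over the 3 bins of mean level that held the clustered genes. The not called were Pcdhb6 at -0.35, Pcdhb22 at -0.10 and Pcdhb8 at 0.23.

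Pcdhb3 had the largest fall of all 41 genes. It had 5.21 and 5.35 in VTA pull-downs, against 6.34 and 6.31 in VTA inputs, and 5.49 and 5.5 in NAC pull-downs, against 6.12 and 6.02 in NAC inputs. The averaged difference was -0.81 (SE 0.07, 1.75-fold lower). Pcdhb3 entered the filtered fit only through its inputs, so its p is taken from the fit without a filter (limma adjusted p with Benjamini-Hochberg = 0.003). All 4 pull-downs lay under their array's median over the named genes, so the size of the fall is not exact.

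Pcdhb17 had 6.18 and 7.09 in VTA pull-downs, against 7.54 and 7.44 in VTA inputs, and 7.0 and 6.75 in NAC pull-downs, against 7.33 and 7.34 in NAC inputs. The pull-downs stayed below the inputs, but the second VTA pull-down lay above both NAC pull-downs and the first below both. The averaged difference was -0.66 (SE 0.16, limma adjusted p with Benjamini-Hochberg = 0.011), and it was -0.43 without the first VTA pull-down and -0.88 without the second. The VTA pull-downs of Pcdhb8 were also far apart, at 5.74 and 6.62. Over the clustered genes the second VTA pull-down minus the first ran from -0.37 to 0.92, with a median size of 0.22, against 0.14 over all genes.

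Pcdhb15 had 5.48 and 5.90 in VTA pull-downs, against 6.64 and 6.59 in VTA inputs, and 6.06 and 5.95 in NAC pull-downs, against 6.32 and 6.39 in NAC inputs. Its averaged difference was -0.63 (SE 0.09, limma adjusted p with Benjamini-Hochberg = 0.0012). Pcdhb13 had 6.19 and 5.98 in VTA pull-downs, against 6.87 and 6.56 in VTA inputs, and 6.11 and 6.12 in NAC pull-downs, against 6.65 and 6.45 in NAC inputs. Its averaged difference was -0.53 (SE 0.09, limma adjusted p with Benjamini-Hochberg = 0.0021). In both genes the groups were separate at each target.

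Pcdhga10, the single gamma gene measured alone, had 7.67 and 7.57 in VTA pull-downs, against 8.07 and 8.04 in VTA inputs, and 7.81 and 7.60 in NAC pull-downs, against 7.93 and 7.92 in NAC inputs. Its averaged difference was -0.32 (SE 0.07, limma adjusted p with Benjamini-Hochberg = 0.0064), and the call was lost with the centring over the genes tested (-0.19, adjusted p = 0.053). A brighter probe set annotated to Pcdhga10 and a second symbol, described at the end, had 0.17 and did not pass. The remaining 8 called beta genes, which were Pcdhb4, Pcdhb7, Pcdhb12, Pcdhb14, Pcdhb16, Pcdhb18, Pcdhb19 and Pcdhb20, fell by 0.27 to 0.47. Of these, Pcdhb4, Pcdhb7, Pcdhb16, Pcdhb18 and Pcdhb19 owed their place to the inputs. With that centring 10 of the 16 clustered genes were lower, against 15% of all genes. In the deposited scaling, leaving out single arrays gave 11 to 14. Both results include the genes that owed their place to the inputs and are descriptions. The oligodendrocyte, astrocyte, microglial, mural and interneuron lists had medians from -0.64 to -0.29 in the same comparison, and no marker level fell to 0. Not every marker fell, and of the 6 interneuron genes 4 were called lower. Sst had 11.82 and 11.78 in VTA pull-downs, against 11.63 and 11.57 in VTA inputs. With NAC it had 11.70 and 11.76 in pull-downs, against 11.80 and 11.88 in inputs. The summed linear signal of the oligodendrocyte list was 3790 to 3809 in VTA pull-downs against 5638 to 5778 in VTA inputs, and 3963 to 4189 in NAC pull-downs against 6472 to 6605 in NAC inputs. That of the interneuron list was 4850 to 4911 in VTA pull-downs against 4835 to 4861 in VTA inputs, and 4506 to 4626 in NAC pull-downs against 5269 to 5443 in NAC inputs. The part of these cells in the fall of the clustered genes was not tested.

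Of the 11 non-clustered protocadherins, 5 were lower and none higher in limma, with a median of -0.15, near the -0.11 of all genes. Over all genes the shares were 32% lower and 9.6% higher. With the centring over the genes tested, 2 of the 11 were lower and 1 higher. Pcdh20 fell by 0.44, Pcdh11x, an X-linked delta-1 gene, by 0.35, and Pcdh18 by 0.26. Pcdh7, the brightest delta-1 probe set, had 8.69 and 8.70 in VTA pull-downs, against 9.19 and 9.08 in VTA inputs, and 9.0 and 8.89 in NAC pull-downs, against 9.04 and 9.17 in NAC inputs. Its averaged difference was -0.30 (SE 0.07, limma adjusted p with Benjamini-Hochberg = 0.0076), and -0.16 with an adjusted p of 0.077 with the centring over the genes tested. Pcdh15, known from the tip links of inner ear hair cells, had 6.89 and 6.98 in VTA pull-downs, against 7.17 and 7.25 in VTA inputs, and 6.86 and 6.60 in NAC pull-downs, against 6.94 and 7.04 in NAC inputs. Its difference of -0.27 (SE 0.08, limma adjusted p with Benjamini-Hochberg = 0.020) lost the call under 3 scalings, without a filter, and without the second NAC pull-down, the second NAC input or the second VTA input, at -0.27 to -0.14.

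Pcdh10, a delta-2 gene whose product recruits the WAVE complex that acts on actin, had 10.19 and 10.37 in VTA pull-downs, against 10.49 and 10.41 in VTA inputs. It had 10.17 and 10.26 in NAC pull-downs, against 10.27 and 10.38 in NAC inputs. Its difference of -0.14 did not pass (SE 0.07, limma adjusted p with Benjamini-Hochberg = 0.13). Pcdh8, Pcdh9, Pcdh17, Pcdh19 and Pcdh1 lay between -0.15 and 0.10 and did not pass either. Pcdh1 had 8.47 and 8.51 in VTA pull-downs, against 8.37 and 8.41 in VTA inputs, and 8.45 and 8.43 in NAC pull-downs, against 8.26 and 8.41 in NAC inputs. It passed with the centring over the genes tested, at 0.23, and with quantile normalization, at 0.18.

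**Figure D4:**
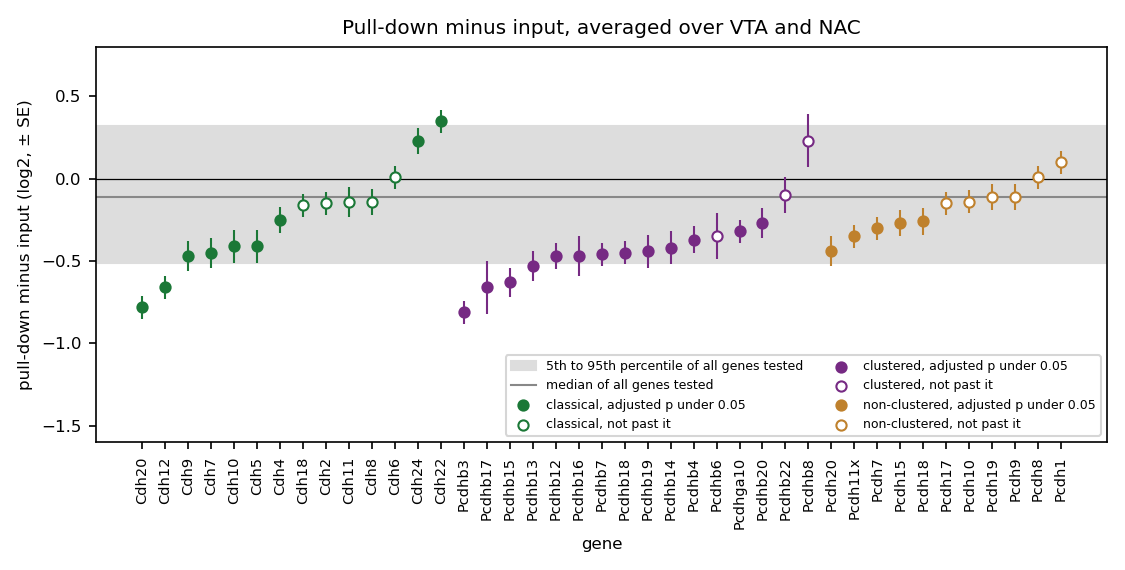
Pull-down minus input averaged over VTA and NAC (log2, with SE bars) for the 41 genes, sorted within classical, clustered and non-clustered groups, with filled points for an adjusted p under 0.05. The grey band spans the 5th to 95th percentile of all genes, -0.51 to 0.32, and its line their median of -0.11; Pcdhb3, Cdh20, Cdh12, Pcdhb17, Pcdhb15 and Pcdhb13 lie below the band and Cdh22 above it.

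Each target was also compared with its own input, and these 2 comparisons share no array. With VTA, 24 genes were lower and 2 higher (Cdh22 at 0.58 and Cdh24 at 0.43), against 25.9% lower and 5.44% higher over all genes, with a median of -0.40 over the 41 genes and -0.15 over all. The lower genes included 13 of 16 clustered genes, 8 of 14 classical cadherins and 3 of 11 non-clustered genes. All 6 clustered genes that owed their place to the inputs were among the 13, so these counts and the total of 24 are descriptions. Of the other 10 clustered genes, 7 were lower, with a median of -0.52. Differences reached -1.04 at Pcdhb3 (SE 0.09, 2.06-fold lower), -0.96 at Cdh12, -0.92 at Pcdhb15 and -0.88 at both Pcdhb7 and Cdh20. The limma adjusted p-values (Benjamini-Hochberg) were 0.001 for Cdh12, 0.0024 for Pcdhb15 and 0.0015 for Cdh20, while Pcdhb3 and Pcdhb7 passed the filter only through their inputs and their values are a description. Without the first VTA input the count called fell to 6, and that of lower clustered genes to 4, against 2.87% of all genes. With the centring over the genes tested, 11 of the 41 genes were lower and 3 higher, against 1083 lower and 1719 higher of all 11712 genes.

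With NAC, Cdh7, Cdh12, Cdh20, Pcdhb3 and Pcdh20 were lower and none higher in limma, against 8.01% lower and 4.34% higher over all genes. Cdh20 had -0.68 (SE 0.11), Pcdh20 -0.47 (SE 0.13), Cdh7 -0.44 (SE 0.13) and Cdh12 -0.36 (SE 0.10), with limma adjusted p-values (Benjamini-Hochberg) of 0.0063, 0.040, 0.047 and 0.044. Pcdhb3, whose inputs alone let it past the filter, had -0.57 (SE 0.09). These 5 genes were also lower with VTA. Leaving out single arrays gave 1 to 9 called genes, with 1 left without the second NAC pull-down or either NAC input, and without a filter none of the 57 passed. The median was -0.21 over the 41 genes and -0.06 over all. Across the 41 genes the NAC and VTA differences had a Pearson r of 0.67, a description over genes that are not independent. The difference was more negative with VTA at 32 of 41 genes, clustered genes making up 15 of these, against 67.9% of all genes. With the centring over the genes tested it was more negative at 26 of 41, against 44.9% of all genes. Both counts include clustered genes that owed their place to the inputs, so they are descriptions. The test of the difference of enrichment, above, passed for none.

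**Figure D5:**
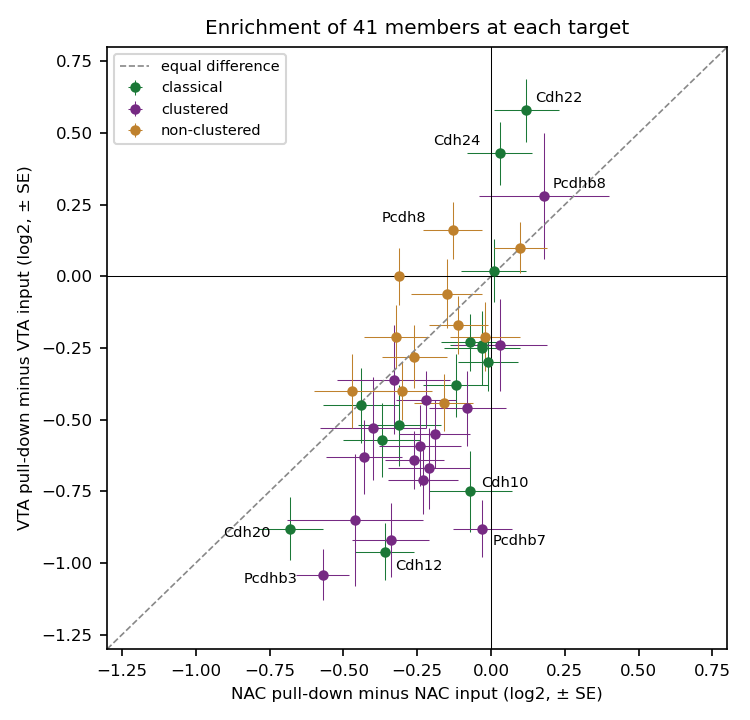
Pull-down minus input with NAC (horizontal axis) against the same with VTA (vertical axis) for the 41 genes, log2 with SE bars. Points below the diagonal are more negative with VTA, which holds for 32 of 41 genes and for 67.9% of all genes, and Cdh22 at 0.58 and Cdh24 at 0.43 are the highest with VTA. The 32 include clustered genes that passed the filter only through their inputs, so this count is a description.

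Genes that work with these proteins were followed as 4 lists. Of 15 catenins and adherens partners tested, 7 were lower and none higher in the averaged pull-downs (limma), with a median of -0.19. They included Vcl, which codes for the actin-binding vinculin, at -0.66, the nectin gene Nectin3 at -0.55, and the catenin genes Jup (plakoglobin) at -0.42, Ctnnd1 at -0.32 and Ctnna1 at -0.31. Adam10, a protease that sheds cadherins, had -0.19. Of 11 atypical members of the superfamily, 4 were lower, at -0.48 for Fat1, -0.38 for Fat4 and -0.30 for both Fat3 and Clstn2, with a median of -0.05. Of 11 protocadherin signalling partners, Wasf1, a subunit of the WAVE complex, was 0.24 higher and the phosphatase gene Ppp1ca 0.23 higher, while the kinase gene Fyn fell by 0.26 and Cyfip2, another WAVE subunit, by 0.21. Of 11 genes known to act on the clustered promoters, 5 were lower. They were the cohesin genes Stag2 at -0.39 and Stag1 at -0.36, the cohesin loader Nipbl at -0.34, and the silencing factors Smchd1 at -0.36 and Setdb1 at -0.29. Their shares called lower are read against the 32% of all genes. With each array centred on its named-gene median, the counts lower were 4, 4, 1 and 5, with 1, 0, 2 and 0 higher, in the order of the lists above, and the median of the atypical members turned to 0.01. In the deposited scaling none of these 48 partner genes was called between VTA and NAC pull-downs.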

How the data were processed

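RNA was measured on 8 Affymetrix arrays in 4 groups of 2. The authors deposited 1 log2 value per probe set and array (41345 probe sets), made with Transcriptome Analysis Console per the submitters' processing notes. Its version and settings were not given in the sources used here. No further normalization was applied. Values carry no read depth, and the number of arrays limits the precision.

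Names came from the platform annotation, where 23521 probe sets had 1 symbol, 1814 several and 16010 none. All 57 genes studied matched RefSeq (GRCm38.p6) by Entrez identifier with the same symbol. Each gene was represented by its brightest single-symbol probe set and kept if at least 2 arrays exceeded the array's median over the named genes.

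A mean for each group was fitted with limma 3.58.1 in R 4.3.3 (lmFit and eBayes, residual degrees of freedom 4, prior 6.07). The fit was tested on simulated data. Tests were two-sided, Benjamini-Hochberg adjusted over 11712 genes, at 0.05, in 6 comparisons. Full values were given for genes called between VTA and NAC, the 6 largest calls in each direction of the averaged comparison, and the brightest probe set of each subfamily; values of Pcdh1, Pcdh17, Pcdh19 and Pcdhb8 were added after they were seen. The genes, lists and tests were chosen with earlier results of these data known. Alternatives covered scaling, filter, probe set choice, moderation, samples in the fit, a replicate block and leaving out arrays.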

Additional observations from a re-analysis of the deposited data

How the results depend on the processing

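The averaged comparison called 27 of 41 genes, and 20 to 31 under the other scalings, moderation and block. It called 24 of 57 without a filter, 19 of 30 with all 8 arrays required above the median, and 26 of 42 with probe sets averaged. Counts over the 41 genes include the clustered genes that owed their place to the inputs and are descriptions. With NAC, 5 genes were called; 3 with arrays centred on their named-gene median, 2 with quantile normalization, 2 with centring on the genes tested, 8 with an intensity trend and robust moderation, and 0 without a filter. With VTA, 26 were called; 17 without a filter and 14 with centring on the genes tested. Between VTA and NAC pull-downs, 4 were called, but 0 without a filter and 0 when only those groups were fitted. The share of all genes called lower also moved with the setting. In the averaged comparison it was 32%, and 21.9% with named-gene centring, 10.8% without a filter and 34% with trend and robust moderation. With NAC it was 8.01%, 5.4%, 0.252% and 11.3% in the same order. With VTA it was 25.9%, and 6.11% without a filter. Between the pull-downs it was 2.05%, 0.451% without a filter and 0.879% when only those groups were fitted. Leaving out single arrays gave 22 to 29 called genes in the averaged comparison, 1 to 9 with NAC, 6 to 26 with VTA and 0 to 4 between the pull-downs. It gave 0 for the inputs and for the difference of enrichment, as did every other setting tried. The centrings on the genes tested and on all probe sets were chosen after seeing the data. With the replicate number as a block the counts were 27, 5, 26 and 4. Same-numbered arrays did not deviate together in every pair (r from -0.13 to 0.30), so the numbers are not taken to pair samples. A crossed block between the pull-downs called 3. No called difference given with its full values reversed; with the centring on the genes tested, uncalled differences near 0 changed sign, such as Pcdhb22, Pcdh9 and Pcdh19 in the averaged comparison and Cdh2 and Cdh4 between the pull-downs. Cdh2 and Pcdh10 passed only with trend and robust moderation. The cause of these changes was not tested.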

Other observations

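Some probe sets bear on these genes but were not used above, because they share their gene with a brighter probe set or carry several symbols. They were tested in a limma fit over 13066 probe sets, with Benjamini-Hochberg adjustment. A second Cdh2 probe set lay at 8.83 and 9.15 in VTA pull-downs, against 8.86 and 8.85 in VTA inputs, and its averaged pull-down minus input was 0.07 (adjusted p = 0.55), where the brighter probe set had -0.15 and also did not pass. A second Pcdh15 probe set had -0.23 (adjusted p = 0.072), near the -0.27 of the brighter one.

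A probe set annotated to 9 genes of the alpha cluster had -0.12 (adjusted p = 0.24) and one annotated to 9 genes of the gamma cluster had 0.00 (adjusted p = 0.98). These are probe sets for several transcripts, so no gene is named from them. A probe set annotated to Pcdhga10 together with a second symbol had 0.17 (adjusted p = 0.09), opposite in sign to the -0.32 of the Pcdhga10 probe set used above. It was brighter, at 10.59 to 11.1 over the arrays. Its pull-down minus input was 0.36 with NAC (adjusted p = 0.051) and -0.02 with VTA (adjusted p = 0.88). The fall called in most single beta genes was therefore not called in the probe sets annotated to many alpha or gamma genes, and the difference between them was not tested.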
